A study of Mus musculus with 4 samples.

Results

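The 10 genes of Notch signalling and of secretory cell fate described here were measured in small-intestinal adenomas of mice with and without PAF: the receptors NOTCH1 and NOTCH2, the ligands JAG1, DLL1 and DLL4, the Notch effector HES1, and the fate factors ATOH1, GFI1, SPDEF and NEUROG3. The genes were chosen by name, as rows of the deposited table whose upper-case symbol was one of these 10, and all 10, written here as in that table, were found among 29871 distinct symbols. The study compared 2 groups of 2 libraries. The PAF KO adenomas came from mice with a PAF knockout and the Apc Min allele, a truncating mutation of 1 copy of the tumour suppressor Apc, with genotype PAF KO; APC Min/+. The control adenomas, called wild type in the labels, carried the same Apc Min allele with no PAF knockout (APC Min/+), so both groups were tumours of the Apc Min model. The abbreviation PAF is read, from what is known of the study, as PCNA-associated factor. The age of the mice, the form of the knockout and the number of animals or adenomas behind each library are not stated in the labels.

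Notch receptors are cut by proteases when a ligand on a neighbouring cell binds them, and the freed intracellular part joins the DNA-binding protein Rbpj and a Mastermind co-activator to switch on genes such as HES1. In the intestinal crypt HES1 represses ATOH1, the factor that progenitors need to become goblet, Paneth or enteroendocrine cells. Cells with active Notch keep to the absorptive or stem cell course, while cells that express ATOH1 show Delta-like ligands to their neighbours. Downstream of ATOH1, SPDEF drives goblet and Paneth cell maturation, GFI1 directs the choice between those cells and the endocrine lineage, and NEUROG3 starts the endocrine program.

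The sequences just upstream of 3 of the fate factors are shown because these genes had higher levels in both PAF KO libraries than in both control libraries. They are the 250 bases before the annotated start from RefSeq on GRCm38.p6, and the deposited values used the older build mm9. The ATOH1 window is chr6:64728875-64729124 on the plus strand, the SPDEF window chr17:27728952-27729201 on the minus strand and the NEUROG3 window chr10:62132840-62133089 on the plus strand. Capitals mark matches on either strand to the Rbpj core TGGGAA, the Hes-type N-box CACNAG or the E-box CANNTG of helix-loop-helix factors; the last 2 may overlap.
ATOH1: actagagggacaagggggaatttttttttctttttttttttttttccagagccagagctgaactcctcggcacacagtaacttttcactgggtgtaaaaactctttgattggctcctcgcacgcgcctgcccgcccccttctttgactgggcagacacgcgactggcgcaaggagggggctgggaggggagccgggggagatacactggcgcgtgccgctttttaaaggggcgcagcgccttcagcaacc
SPDEF: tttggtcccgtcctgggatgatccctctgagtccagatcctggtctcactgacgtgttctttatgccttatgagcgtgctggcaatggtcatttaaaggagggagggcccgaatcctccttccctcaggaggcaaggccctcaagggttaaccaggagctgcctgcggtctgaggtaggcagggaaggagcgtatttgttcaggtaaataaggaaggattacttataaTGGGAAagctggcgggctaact
NEUROG3: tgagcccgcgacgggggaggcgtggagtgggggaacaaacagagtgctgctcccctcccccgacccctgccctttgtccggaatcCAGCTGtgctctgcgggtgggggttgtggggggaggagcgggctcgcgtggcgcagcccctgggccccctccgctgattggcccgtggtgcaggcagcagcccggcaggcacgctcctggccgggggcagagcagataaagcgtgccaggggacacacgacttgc
The SPDEF window held 1 Rbpj core, which began 22 bases before the start, and no match to the other motifs. The NEUROG3 window held 1 E-box, which began 165 bases before the start. The ATOH1 window held none of the 3 motifs. Over 32851 windows of all genes, 21.6% held the Rbpj core, 36.7% the N-box and 66.2% the E-box. Windows were found for 9 of the 10 genes (all but HES1), 11 windows in all because DLL1 and GFI1 had 2 each. The Rbpj core was in 1 of the 11, the N-box in 3 (NOTCH1, NOTCH2 and DLL4) and the E-box in 6 (those of DLL1 and GFI1, JAG1 and NEUROG3). GC content of these windows ran from 52.8% (SPDEF) to 72.0% (NOTCH2), against a median of 52.4% over all windows. These matches describe letters only.

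Expression is given as FPKM, fragments scaled by transcript length and by library depth, as the authors deposited it. How depth was scaled between libraries is not stated. The fragment estimates here assume that each library was scaled by its own mapped fragments. The worth of a single fragment, read from low values, gave estimates of 15300000 and 23200000 fragments for PAF KO libraries 1 and 2 and of 12800000 and 17000000 for control libraries 1 and 2. The libraries were not equally alike. The median absolute difference over the 13716 tested rows, on the log2(FPKM + 1) scale, was 0.488 between the PAF KO libraries and 0.0882 between the control libraries. PAF KO library 2 stood apart on the first principal component, which held 64.3% of the variance. It also differed from the other 3 libraries in sex-linked transcripts: Xist read 46.4 FPKM there and at most 0.0086 FPKM in the others. The Y-linked Eif2s3y read 0 FPKM there, against 26.0 FPKM in PAF KO library 1 and 31.7 and 31.0 FPKM in the control libraries. The 2 PAF KO libraries thus came from animals of different sex. The row of the PAF gene (2810417H13Rik) read 4.13 and 11.4 FPKM in the PAF KO libraries, against 17.9 and 17.8 FPKM in the control libraries, so transcript remained in both knockouts. Each result below is therefore given for both PAF KO libraries. Whether the control libraries were separate animals is not stated. The p-values measure only the spread between the libraries of a group, which may be technical in the controls.

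**Figure D1:**
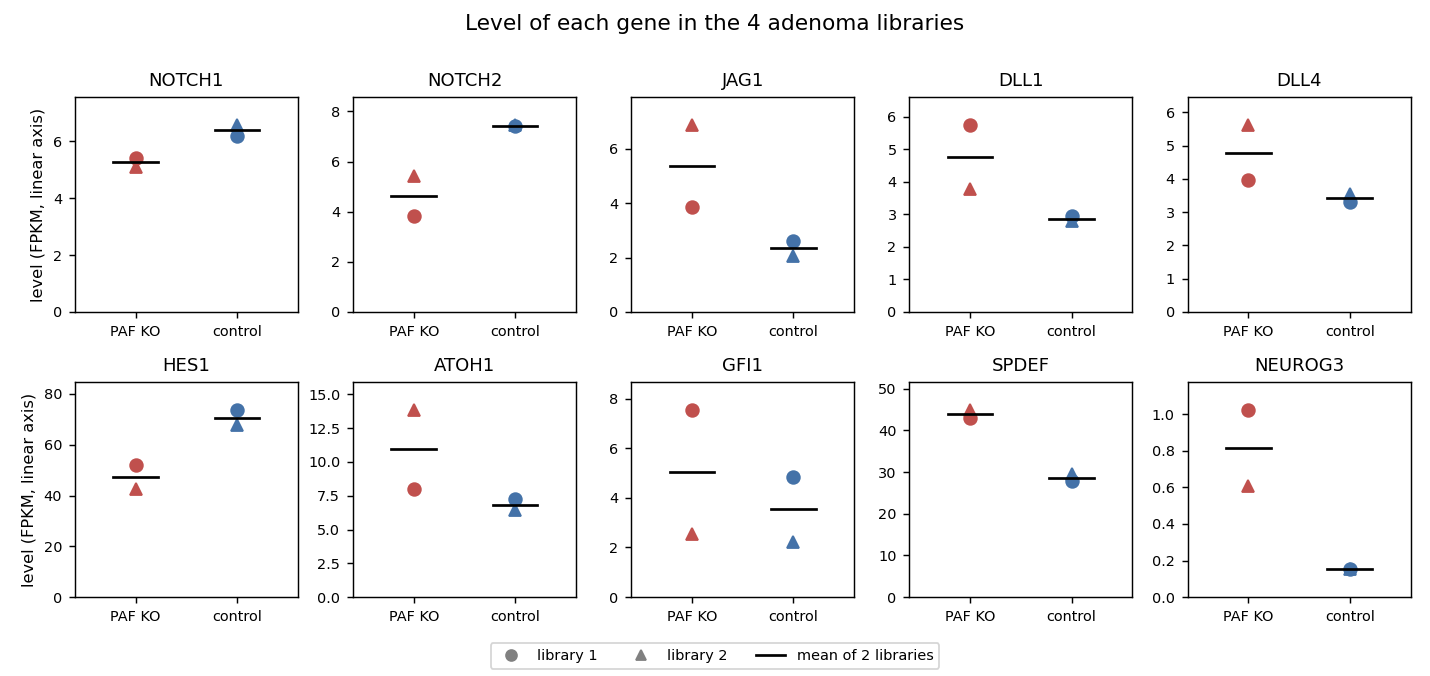
Level of each of the 10 genes in FPKM on a linear axis from 0, with PAF KO libraries left and control libraries right; circles are library 1, triangles library 2, and bars the mean of 2. Only GFI1 has overlapping groups; HES1, NOTCH1 and NOTCH2 lie lower in both PAF KO libraries and the other 6 higher.

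Across the 10 genes, the fate factors ATOH1, SPDEF and NEUROG3 and the 3 ligands were higher in both PAF KO libraries than in both control libraries, while both receptors and HES1 were lower in both. GFI1 alone overlapped between groups. Of the 9 genes that passed the filter of a mean of 1 FPKM, 5 lay above and 3 below with no overlap. In the background of all tested rows, 21.5% lay above and 30.2% below in the same way. In limma's moderated test, with Benjamini-Hochberg adjustment over all tested rows, 0 of the 9 were called at an adjusted p of 0.05. Over all rows 0.0729% were called (10 rows, all lower in PAF KO). At an unadjusted p under 0.05, 1 of the 9 genes was higher (SPDEF) and 1 lower (HES1), while 3.44% of all rows were higher and 9.76% lower. Fold changes below are log2 differences, PAF KO minus control, computed after adding 1 FPKM to every value, which shrinks the differences of low genes. The median of these over the 9 genes was 0.37, against 0.003 over all tested rows.

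NOTCH1, the receptor that carries most Notch signalling in crypt cells, read 5.41 and 5.11 FPKM in the PAF KO libraries, against 6.20 and 6.57 FPKM in the control libraries. Both knockouts were slightly lower, with a log2 fold change of -0.24 (SE 0.162, 2 libraries in each group; limma adjusted p = 0.549). A second row with the symbol NOTCH1 was listed at 0 in all 4 libraries and was not used. NOTCH2, which acts together with NOTCH1 in the crypt, read 3.84 and 5.43 FPKM in the PAF KO libraries, against 7.41 and 7.45 FPKM in the control libraries. Its PAF KO mean was 0.623 of the control mean, with a log2 fold change of -0.60 (SE 0.217; limma adjusted p = 0.386). The ratio of NOTCH1 to NOTCH2 FPKM was 1.41 and 0.942 in the PAF KO libraries and 0.836 and 0.881 in the control libraries. Library 1 had thus the lower NOTCH2 and library 2 the lower NOTCH1, by a small margin.

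The 3 ligands were all low, between 2.08 and 6.87 FPKM, and each was higher in both PAF KO libraries. JAG1, a ligand of the Serrate type found in vessels and mesenchyme as well as in epithelium, read 3.86 and 6.87 FPKM in the PAF KO libraries, against 2.62 and 2.08 FPKM in the control libraries. It had the largest fold change among the 9 tested genes, 0.89 (SE 0.317; limma adjusted p = 0.379), with 0.54 for PAF KO library 1 and 1.24 for PAF KO library 2. DLL1, which secretory progenitors display to their neighbours, read 5.74 and 3.77 FPKM in the PAF KO libraries, against 2.95 and 2.80 FPKM in the control libraries (log2 fold change 0.55, SE 0.249; limma adjusted p = 0.438). DLL4, the other Delta-like ligand of the crypt and also a ligand of sprouting vessels, read 3.96 and 5.61 FPKM in the PAF KO libraries, against 3.32 and 3.55 FPKM in the control libraries (log2 fold change 0.37, SE 0.227; limma adjusted p = 0.518). The knockout libraries did not share an order: library 1 was the higher for DLL1, and library 2 for JAG1 and DLL4. The ratio of DLL1 to DLL4 FPKM was 1.45 and 0.673 in the PAF KO libraries, on either side of the 0.889 and 0.789 in the control libraries.

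Endothelial markers were also higher. Of 12 such markers, 11 were higher in both PAF KO libraries and 1 (Cdh5, a vascular cadherin) was lower, and their summed level was 164 and 186 FPKM in the PAF KO libraries, against 130 and 132 FPKM in the control libraries. Pecam1, an adhesion molecule of endothelium, read 16.2 and 29.5 FPKM in the PAF KO libraries and 12.3 and 12.4 FPKM in the control libraries. Plvap, of vessel wall openings, read 43.1 and 53.4 FPKM in the PAF KO libraries and 34.9 and 35.6 FPKM in the control libraries, and Cdh5 25.9 and 12.4 FPKM in the PAF KO libraries and 26.3 and 27.6 FPKM in the control libraries. Smooth muscle and pericyte markers summed to 318 and 928 FPKM in the PAF KO libraries, against 266 and 264 FPKM in the control libraries, with 11 of 13 higher in both and 0 lower in both. The contractile genes Tagln and Acta2 were far higher in PAF KO library 2 (247 and 170 FPKM) than in PAF KO library 1 (53.4 and 70.1 FPKM), while the kinase Mylk read 69.8 and 87.2 FPKM in the PAF KO libraries and 38.8 and 37.4 FPKM in the control libraries. Over all tested rows, 21.5% were higher in both knockouts and 30.2% lower in both. No marker of either list was at 0. The part of these cells in the levels of JAG1 and DLL4 was not tested, and in bulk tissue fewer cells of a type cannot be told apart from less RNA per cell.

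HES1, the repressor that Notch switches on, was the most abundant of the 10 genes by mean level in both groups, with 52.1 and 42.4 FPKM in the PAF KO libraries, against 73.6 and 67.7 FPKM in the control libraries. Both knockouts lay below both controls, at a mean of 47.3 ± 6.83 FPKM in PAF KO and 70.7 ± 4.14 FPKM in control adenomas (SD, n = 2 each). The log2 fold change was -0.58 (SE 0.189; limma unadjusted p = 0.0408, adjusted p = 0.359), with -0.43 for PAF KO library 1 and -0.72 for PAF KO library 2. The difference exceeded the gap within either group, which was 0.29 between the PAF KO libraries and 0.12 between the control libraries on the log2 scale.

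ATOH1, the master factor of the secretory lineage, read 8.03 and 13.8 FPKM in the PAF KO libraries, against 7.26 and 6.43 FPKM in the control libraries. PAF KO library 1 lay just above the controls and library 2 well above, with log2 differences of 0.20 and 0.92 from the control mean. The joint fold change was 0.56 (SE 0.305; limma adjusted p = 0.481). The ratio of ATOH1 to HES1 FPKM was 0.154 and 0.326 in the PAF KO libraries, against 0.0987 and 0.0950 in the control libraries. Because ATOH1 was higher and HES1 lower in both PAF KO libraries, the groups could not overlap in this ratio. The 2-sided exact permutation p was thereby fixed at 0.333, the smallest that 2 against 2 libraries can give. The ratio therefore adds no test beyond the rows of the 2 genes.

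SPDEF had the smallest standard error of the 9 tested genes. It read 43.0 and 44.8 FPKM in the PAF KO libraries, against 27.9 and 29.5 FPKM in the control libraries, a ratio of means of 1.53. The PAF KO libraries differed by only 0.06 on the log2 scale, and the control libraries by 0.08. SPDEF had the smallest p among the 9 tested genes, with a log2 fold change of 0.60 (SE 0.152; limma unadjusted p = 0.0188, adjusted p = 0.309). Its ratio to ATOH1 was 5.36 and 3.24 in the PAF KO libraries and 3.84 and 4.58 in the control libraries, so the 2 factors did not keep a fixed proportion.

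GFI1, a zinc finger repressor of secretory progenitors that leukocytes also express, varied most within groups. It read 7.54 and 2.56 FPKM in the PAF KO libraries, against 4.85 and 2.21 FPKM in the control libraries. Its gap was 1.26 between the PAF KO libraries and 0.86 between the control libraries on the log2 scale, and the groups overlapped (log2 fold change 0.35, SE 0.580; limma adjusted p = 0.769). Without PAF KO library 1 the value was -0.28, and without control library 2 it was -0.09, so its direction depended on single libraries. Leukocyte markers summed to 292 and 398 FPKM in the PAF KO libraries, against 258 and 280 FPKM in the control libraries. Of 16 tested markers, 6 were higher in both knockouts and 4 lower in both, against 21.5% and 30.2% of all tested rows. Among the most abundant, the lysozyme Lyz2 was higher, at 56.1 and 158 FPKM in the PAF KO libraries and 51.5 and 44.5 FPKM in the control libraries. The mast cell protease Mcpt4 was lower, at 25.0 and 27.5 FPKM in the PAF KO libraries and 79.3 and 89.5 FPKM in the control libraries. Cpa3, another mast cell protease, read 28.3 and 41.1 FPKM in the PAF KO libraries and 58.6 and 66.2 FPKM in the control libraries. S100a8, S100a9 and Csf3r, neutrophil genes of the list, were chosen here after their values were seen. They were higher in both knockouts and highest in PAF KO library 1. Other leukocyte markers, such as Lyz2, were instead highest in PAF KO library 2. So was Itgam, also chosen after its values were seen. It read 3.44 and 6.08 FPKM in the PAF KO libraries and 2.34 and 1.97 FPKM in the control libraries. GFI1 was highest in PAF KO library 1, but it was not higher in both knockouts. The calcium-binding protein S100a8 read 63.1 and 51.0 FPKM in the PAF KO libraries, against 6.59 and 13.2 FPKM in the control libraries (log2 fold change 2.48, SE 0.376; limma adjusted p = 0.238). Its partner S100a9 read 75.04 and 39.5 FPKM in the PAF KO libraries, against 8.72 and 10.95 FPKM in the control libraries. The receptor Csf3r read 2.66 and 1.61 FPKM in the PAF KO libraries and 0.369 and 0.311 FPKM in the control libraries. Between the control libraries, GFI1 and Csf3r were higher in library 1, but S100a8 and S100a9 were higher in library 2. The part of leukocytes in the level of GFI1 was not tested.

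NEUROG3, which marks short-lived endocrine progenitors, was the rarest of the 10 genes and fell under the filter. It read 1.02 and 0.605 FPKM in the PAF KO libraries, against 0.155 and 0.155 FPKM in the control libraries. At the estimated depth and the longest annotated transcript of 1540 bases, this is about 24 and 22 fragments in the PAF KO libraries and about 3 and 4 in the control libraries. Both knockouts lay above both controls, at a ratio of means of 5.25, but the control level rests on a few fragments. With no filter on low values the log2 fold change was 0.64 (limma adjusted p = 0.341). The other genes had between 108 estimated fragments (GFI1 in control library 2) and 1993 (SPDEF in PAF KO library 2).

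**Figure D2:**
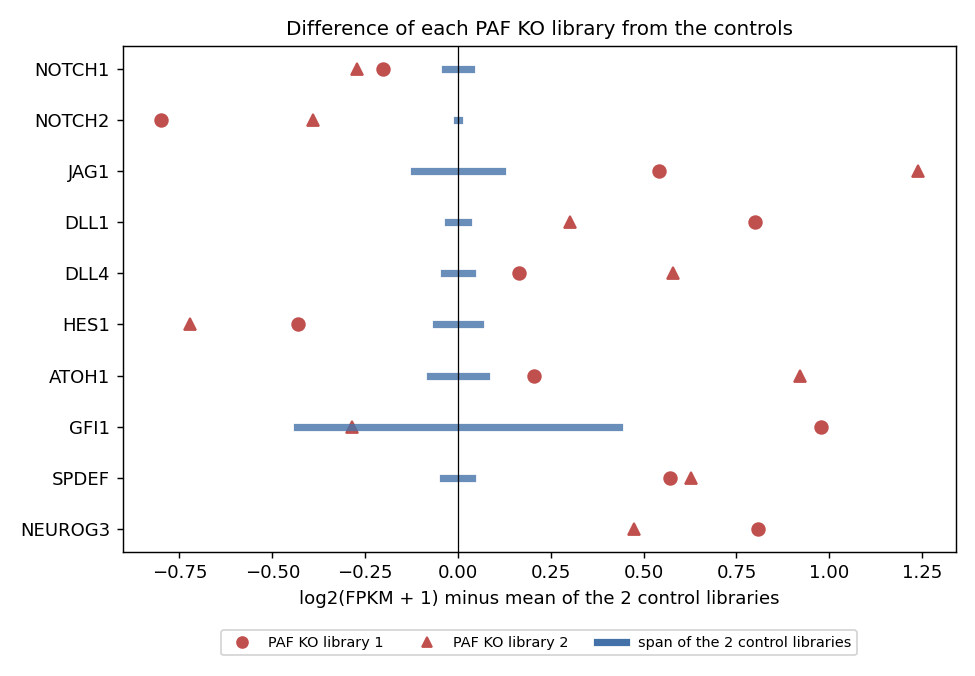
Difference of each PAF KO library (circle library 1, triangle library 2) from the mean of the 2 control libraries on the log2(FPKM + 1) scale, with the blue bar spanning the control libraries. All but 1 of the genes have both PAF KO libraries outside the control span, SPDEF with the closest pair (0.57 and 0.63), while GFI1 has library 2 inside it.

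The spread behind these values came mostly from the knockouts. In 8 of the 10 genes the gap between PAF KO libraries was larger than that between control libraries, the exceptions being NOTCH1 and SPDEF. PAF KO library 2 was the further from the controls for 6 genes and PAF KO library 1 for 4. With PAF KO library 2 left out, 3 of the 9 genes were called by limma (NOTCH2, DLL1 and SPDEF), where 20.7% of all rows were called. With PAF KO library 1 left out, 6 were called (NOTCH2, JAG1, DLL4, HES1, ATOH1 and SPDEF), where 61.2% of all rows were called. In both fits the lone knockout library is assumed to vary as the controls do. Without PAF KO library 1 the log2 fold change was 0.63 for SPDEF and -0.39 for NOTCH2. Without PAF KO library 2 it was 0.57 for SPDEF and -0.80 for NOTCH2. The 2 fits use the same control libraries, so they are not independent of each other.

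In order of level, by mean FPKM, the control adenomas ran HES1, SPDEF, NOTCH2, ATOH1, NOTCH1, GFI1, DLL4, DLL1, JAG1 and NEUROG3. The values of NOTCH2, ATOH1 and NOTCH1 lay between 6.20 and 7.45 FPKM there, with those of ATOH1 overlapping those of NOTCH1, and the 2 values of GFI1 there (4.85 and 2.21 FPKM) spanned those of DLL4 and DLL1. In PAF KO adenomas HES1 and SPDEF again led, at means of 47.3 and 43.9 FPKM, with SPDEF library 2 (44.8 FPKM) above HES1 library 2 (42.4 FPKM). ATOH1 came next at a mean of 10.9 FPKM, and the receptors, ligands and GFI1 followed with means between 4.63 and 5.37 FPKM, a range narrower than the gap between the 2 libraries for all of them but NOTCH1, and NEUROG3 was again the lowest. By rank among tested rows, HES1 lay at percentiles 87.4 and 82.8 in the PAF KO libraries and at 90.8 and 89.7 in the control libraries, and SPDEF at 84.4 and 83.7 in the PAF KO libraries and at 74.5 and 75.9 in the control libraries.

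Other parts of the pathway were read from lists of genes beside the 10. By limma 0 of their genes were called, higher or lower. For comparison, 21.5% of all tested rows were higher and 30.2% lower with no overlap. At an unadjusted limma p under 0.05, 3.44% of all tested rows were higher and 9.76% lower. Among 10 further receptors, ligands and nuclear factors, 9 were tested, 1 was higher and 4 lower with no overlap between groups, and the median log2 fold change was -0.07 (-0.30 and 0.07 in PAF KO libraries 1 and 2). At an unadjusted limma p under 0.05, 0 were higher and 2 lower. Jag2, a second Serrate-type ligand, was lower where JAG1 was higher. It read 4.90 and 3.52 FPKM in the PAF KO libraries, against 8.71 and 8.55 FPKM in the control libraries (log2 fold change -0.90, SE 0.210; limma adjusted p = 0.294). The summed FPKM of DLL1, DLL4, JAG1 and Jag2 was 18.5 and 19.8 in the PAF KO libraries and 17.6 and 17.0 in the control libraries. Maml1, a Mastermind co-activator, read 6.52 and 5.59 FPKM in the PAF KO libraries and 9.94 and 9.27 FPKM in the control libraries. Spen, a co-repressor that binds Rbpj, read 10.6 and 8.07 FPKM in the PAF KO libraries and 13.9 and 12.8 FPKM in the control libraries. The summed FPKM of receptors NOTCH1, NOTCH2, Notch3 and Notch4 was 15.1 and 16.6 in the PAF KO libraries, against 18.7 and 19.1 in the control libraries.

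Among 29 genes that process or modulate Notch receptors and ligands, 26 were tested, 1 was higher and 15 lower with no overlap. The shares over all tested rows were 21.5% higher and 30.2% lower. The median log2 fold change was -0.27, with -0.29 in each PAF KO library, where all tested rows had medians of -0.11 and 0.09. At an unadjusted limma p under 0.05, 0 were higher and 5 lower, against 3.44% and 9.76% of all tested rows. Neurl1a, a ubiquitin ligase of the Neuralized type that acts on Notch ligands, read 3.80 and 3.46 FPKM in the PAF KO libraries, against 9.91 and 9.08 FPKM in the control libraries (log2 fold change -1.18, SE 0.167; limma adjusted p = 0.237). Lfng, a glycosyltransferase that changes how Notch receptors respond to Delta and Jagged ligands, read 11.97 and 11.75 FPKM in the PAF KO libraries, against 24.3 and 22.3 FPKM in the control libraries (log2 fold change -0.92, SE 0.153; limma adjusted p = 0.243). Dtx2, a Deltex ubiquitin ligase, read 5.004 and 4.73 FPKM in the PAF KO libraries and 8.64 and 8.20 FPKM in the control libraries. In all 3 genes the knockout libraries lay close together and at 0.382 to 0.578 of the control mean. They were taken as the 3 of smallest p in the list, a choice that favours close libraries and large differences. Other genes of the list split the knockouts. Psenen read 10.8 and 2.25 FPKM in the PAF KO libraries and 9.72 and 9.07 FPKM in the control libraries. Mib1 read 9.69 and 28.25 FPKM in the PAF KO libraries and 14.5 and 12.6 FPKM in the control libraries.

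Among 13 further Hes and Hey genes, Nrarp and Tle co-repressors, 8 were tested, 2 were higher and 4 lower with no overlap, and the median was -0.28 (-0.07 and -0.38 in PAF KO libraries 1 and 2). Of all tested rows, 21.5% were higher and 30.2% lower with no overlap. Here 0 were higher and 2 lower at an unadjusted limma p under 0.05, against 3.44% and 9.76% of all tested rows. Tle3, a Groucho-type co-repressor, read 17.3 and 14.8 FPKM in the PAF KO libraries, against 33.1 and 32.6 FPKM in the control libraries (log2 fold change -0.99, SE 0.166; limma adjusted p = 0.243). Hes6, a relative of HES1 known to antagonise it, read 97.2 and 114 FPKM in the PAF KO libraries, against 173 and 179 FPKM in the control libraries (log2 fold change -0.73, SE 0.184; limma adjusted p = 0.308). Tle1 read 34.9 and 33.0 FPKM in the PAF KO libraries and 47.6 and 44.5 FPKM in the control libraries. Not every gene of this list was lower: Nrarp, a feedback target of Notch, read 8.56 and 14.97 FPKM in the PAF KO libraries and 7.37 and 7.21 FPKM in the control libraries. Tle4 was also higher in both knockouts, while Hey1 overlapped between groups, at 13.5 and 6.04 FPKM in the PAF KO libraries. Under the filter, Hey2 and Heyl were higher in both knockouts and Hes7 lower in both. Nrarp and these genes are named after their values were seen. Hes3 was listed at 0 in all 4 libraries.

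**Figure D3:**
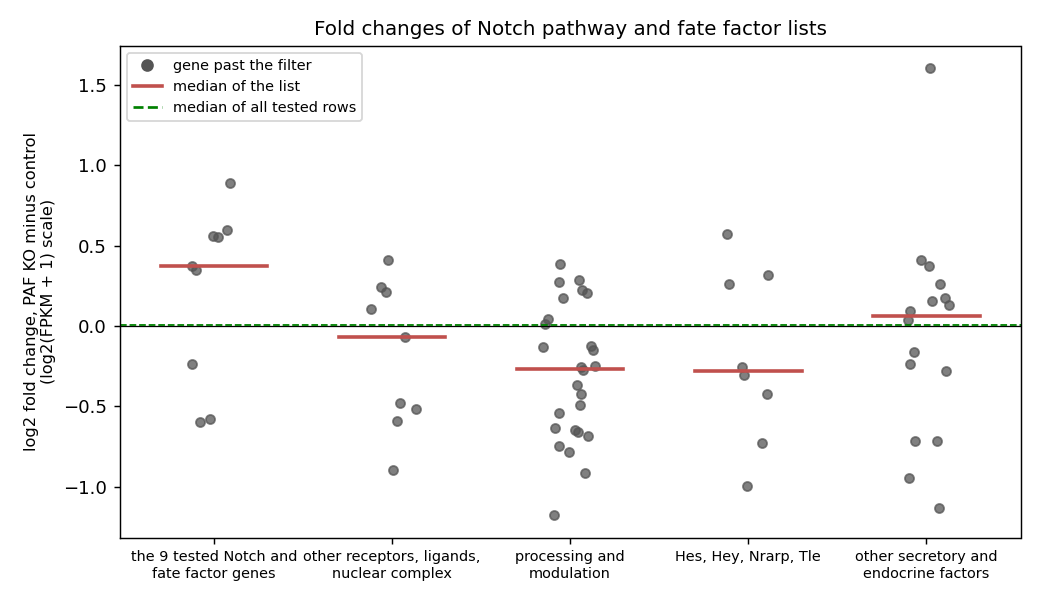
Log2 fold change, PAF KO minus control, of every tested gene in the set of 9 and in 4 lists, with list medians (red) and the median of all tested rows (green dashes). The medians are 0.37 for the 9 genes, then -0.07, -0.27, -0.28 and 0.07, and 0 genes of these lists were called.

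Among 28 other secretory and endocrine fate factors, 16 were tested, 3 were higher and 5 lower with no overlap, and the median was 0.07. Of all tested rows, 21.5% were higher and 30.2% lower with no overlap. Again 0 were higher and 2 lower at an unadjusted limma p under 0.05, against 3.44% and 9.76% of all tested rows. The 3 of smallest p differed in direction, with Sox4 and Foxa1 lower and Creb3l4 higher. Sox4, a progenitor factor, read 63.8 and 61.0 FPKM in the PAF KO libraries, against 142 and 134 FPKM in the control libraries (log2 fold change -1.13, SE 0.162; limma adjusted p = 0.237). Foxa1, a forkhead factor of goblet and endocrine cells, read 35.8 and 45.9 FPKM in the PAF KO libraries, against 69.5 and 65.2 FPKM in the control libraries (log2 fold change -0.72, SE 0.2; limma adjusted p = 0.325). Creb3l4, a membrane-bound factor of secretory cells, read 26.8 and 29.9 FPKM in the PAF KO libraries and 21.8 and 20.4 FPKM in the control libraries. The endocrine factors Neurod1, Insm1, Pax4, Pax6 and Nkx2-2, which act after NEUROG3, were all under the filter.

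Products of the cells these factors specify were set beside them. Goblet cell products summed to 10490 and 16240 FPKM in the PAF KO libraries, against 7144 and 8292 FPKM in the control libraries. Of the 13 products, 8 were higher in both knockouts and 0 lower in both, against 21.5% and 30.2% of all tested rows. Spink4, a goblet cell peptide, read 3021 and 6440 FPKM in the PAF KO libraries, against 1521 and 2134 FPKM in the control libraries, and the trefoil factor Tff3 read 2049 and 3614 FPKM in the PAF KO libraries and 1690 and 1958 FPKM in the control libraries. Zg16, a lectin of goblet granules, instead split the knockouts, at 2310 and 853 FPKM in the PAF KO libraries and 1792 and 1925 FPKM in the control libraries. The sum, to which Spink4 and Tff3 gave most, was highest in PAF KO library 2, but 5 of the 13 rows (Muc2, Fcgbp, Zg16, Muc13 and Ern2) were higher in PAF KO library 1 than in library 2; apart from Zg16, these are named after their values were seen.

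Paneth cell products summed to 1828 and 7824 FPKM in the PAF KO libraries, against 2579 and 2731 FPKM in the control libraries, so the 2 knockouts lay on opposite sides of the controls. The ribonuclease Ang4 read 103 and 3248 FPKM in the PAF KO libraries and 393 and 451 FPKM in the control libraries, and Lyz1, the Paneth lysozyme, read 1006 and 1406 FPKM in the PAF KO libraries and 979 and 1005 FPKM in the control libraries. Mmp7, a protease of Paneth cells, read 287 and 968 FPKM in the PAF KO libraries and 652 and 632 FPKM in the control libraries. The defensin row Defa5 was listed at 0 in 3 libraries and belongs to a family of near-identical genes whose rows are uncertain.

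Enteroendocrine products summed to 156 and 165 FPKM in the PAF KO libraries, against 161 and 183 FPKM in the control libraries. Of 16 tested, 5 were higher in both knockouts (Chgb, Scg2, Cck, Ghrl and Tac1), 4 were lower in both (Sct, Pyy, Nts and Tph1) and 7 overlapped. Apart from Pyy and Sct, these names were chosen after their values were seen. Over all tested rows, 21.5% were higher in both knockouts and 30.2% lower in both. The granin Chgb read 11.4 and 11.5 FPKM in the PAF KO libraries, against 6.45 and 5.99 FPKM in the control libraries. The hormone Pyy read 10.1 and 14.4 FPKM in the PAF KO libraries, against 35.6 and 40.2 FPKM in the control libraries. Secretin (Sct) read 17.0 and 10.6 FPKM in the PAF KO libraries and 18.9 and 29.8 FPKM in the control libraries, and somatostatin (Sst) read 15.6 and 22.2 FPKM in the PAF KO libraries and 14.3 and 17.3 FPKM in the control libraries. Tuft cell markers summed to 126 and 150 FPKM in the PAF KO libraries, against 185 and 186 FPKM in the control libraries, led by the actin-binding protein Avil at 69.8 and 66.0 FPKM in the PAF KO libraries and 110 and 110 FPKM in the control libraries. Other tuft markers differed less: Alox5ap, of leukotriene synthesis, read 18.2 and 26.3 FPKM in the PAF KO libraries and 19.9 and 20.2 FPKM in the control libraries, and the prostaglandin synthase Ptgs1 read 8.17 and 15.2 FPKM in the PAF KO libraries and 13.4 and 13.7 FPKM in the control libraries. Gnat3, a taste-type G protein, was listed at 0 in PAF KO library 1.

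Absorptive cells, the alternative to the secretory fate, also differed between the knockouts. Enterocyte markers summed to 13450 and 1661 FPKM in the PAF KO libraries, against 8891 and 9459 FPKM in the control libraries. The apolipoprotein Apoa1 read 4799 and 381 FPKM in the PAF KO libraries, against 4619 and 5001 FPKM in the control libraries. Apoa4, another apolipoprotein, read 3251 and 10.2 FPKM in the PAF KO libraries, against 948 and 972 FPKM in the control libraries. The fatty acid binding protein Fabp2 was lower in both, at 813 and 342 FPKM in the PAF KO libraries and 1119 and 1295 FPKM in the control libraries. Epithelial markers in general were close, with sums of 8691 and 8548 FPKM in the PAF KO libraries and 7776 and 7687 FPKM in the control libraries. Keratin Krt19 read 2715 and 2372 FPKM in the PAF KO libraries and 1855 and 1988 FPKM in the control libraries. Krt8 read 1438 and 1767 FPKM in the PAF KO libraries and 1305 and 1230 FPKM in the control libraries. Krt18 read 1238 and 1358 FPKM in the PAF KO libraries and 1398 and 1330 FPKM in the control libraries. All 4 libraries thus carried markers of epithelium. Fibroblast markers summed to 449 and 840 FPKM in the PAF KO libraries, against 390 and 385 FPKM in the control libraries. Of 10 such markers, 7 were higher in both knockouts and 0 lower in both, against 21.5% and 30.2% of all tested rows. The matrix genes Dcn and Col1a1 were higher in both knockouts, with log2 fold changes of 0.83 (SE 0.439) and 0.58 (SE 0.166). In PAF KO libraries 1 and 2 these were 0.27 and 1.39 for Dcn and 0.50 and 0.67 for Col1a1. Vim, of the mesenchymal cytoskeleton, overlapped between groups (0.06, SE 0.198). The part of these differences in cell markers in the levels of HES1, ATOH1 and SPDEF was not tested.

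**Figure D4:**
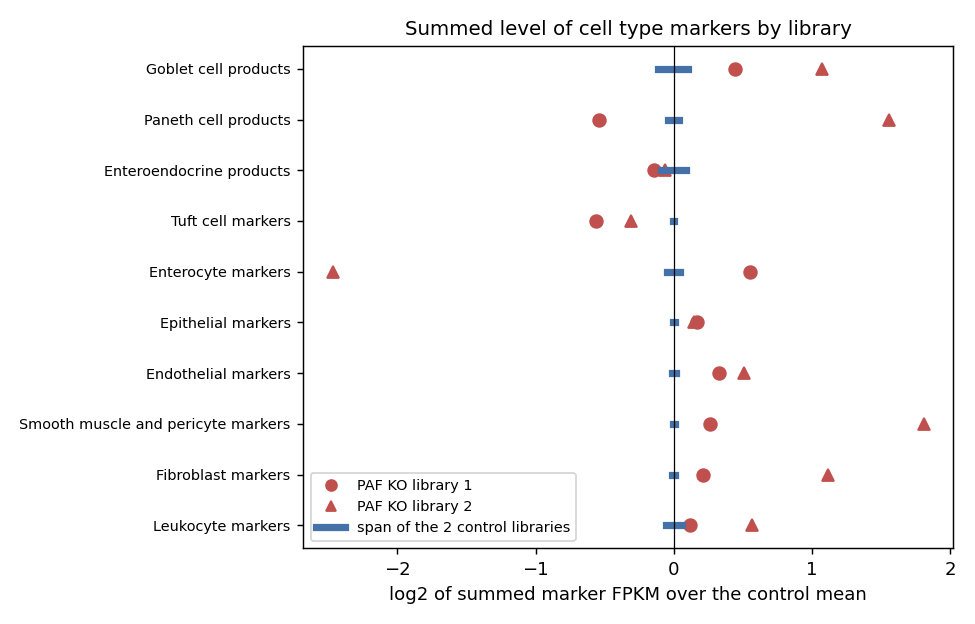
Log2 ratio of the summed marker FPKM in each PAF KO library (circle library 1, triangle library 2) to the control mean, with the blue bar spanning the control libraries. Paneth and enterocyte sums lie on opposite sides of the controls in the 2 knockouts, at 1828 and 7824 FPKM and at 13450 and 1661 FPKM, while goblet, endothelial and smooth muscle sums lie above in both.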

How the data were processed

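RNA from small-intestinal adenomas was extracted with a column kit and sequenced by BGI and Illumina methods, per the labels. A table of FPKM values was deposited by the authors, with 4 columns, 1 for each library. Per the submitters' processing notes, TopHat2 and Cuffdiff were used with the build mm9; their versions, settings and annotation are not stated there. FPKM is scaled for depth and length, so no count test was used.

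The table held 29955 rows. For 84 repeats of a symbol, only the row of higher mean was used, also where a listed gene had 2 names. The 13716 rows whose mean over the libraries reached 1 FPKM were fitted on log2(FPKM + 1) by limma 3.58.1 (R 4.3.3), with group as the only term, a trend of variance on mean level and Benjamini-Hochberg adjustment over all tested rows. The steps were tested on simulated data. Depth was estimated from genes with a single annotated transcript in GENCODE, as the mode of low FPKM multiplied by length; annotation and table differ in build, so fragment numbers are approximate. Counting error alone is larger for rows with few fragments.

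The members and lists were chosen with earlier results of these data known. Named were all 10 genes, called genes and the 3 of smallest p in each pathway list, and the 3 most abundant genes of each marker list. Lists are described by counts and medians, with no set test. Alternatives were a pseudocount of 0.1, no filter, a filter at 5 FPKM, median centring, quantile normalization, no trend, a replicate block and leaving out each library.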

Additional observations from a re-analysis of the deposited data

How the results depend on the processing

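Under every alternative that kept all 4 libraries, 0 of the tested genes among the 10 were called and none of their fold changes changed sign; JAG1, DLL1, DLL4 and GFI1 have no value with the filter at 5 FPKM. The number of rows called over the whole table was 10, 4 with no filter on low values, and 0 to 8397 with 1 library left out. With 1 library left out, the log2 fold change ranged from -0.80 to -0.39 for NOTCH2, 0.54 to 1.24 for JAG1, 0.30 to 0.80 for DLL1, 0.16 to 0.58 for DLL4, -0.72 to -0.43 for HES1, 0.20 to 0.92 for ATOH1, 0.56 to 0.64 for SPDEF and -0.28 to 0.98 for GFI1. GFI1 turned negative without PAF KO library 1 (-0.28) and without control library 2 (-0.09).

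The list median for processing and modulation genes was -0.34 with a pseudocount of 0.1 and -0.21 with median centring. That for further receptors, ligands and nuclear factors was -0.54 with the filter at 5 FPKM. The median for other fate factors was -0.063 with that filter, 0.12 with median centring and 0.01 with quantile normalization, and ran from 0.003 to 0.11 with 1 library left out. The cause of these shifts was not tested, apart from the fewer genes under a stricter filter.

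The labels give both groups the numbers 1 and 2 but no shared animal or day, and deviations of same-numbered libraries correlated at -0.115 over tested rows. With the replicate block 13 rows were called, and with the pairing crossed, chosen after seeing the data, also 13; 0 of the 10 genes were called in either. With 2 libraries a group, low levels such as that of NEUROG3 rest on few fragments.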
